A study of Rattus norvegicus with 24 samples.

Results

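Blood in the dissected tissue was followed through the transcripts of red cells and platelets in rat spinal dorsal horn, where sensory fibres of the limb end. Every probe set whose single gene symbol in the platform annotation was Hbb, Hba-a3, Alas2, Slc4a1 or Pf4 was taken, which gave 6 probe sets of 5 genes out of 15866 on the array. Sprague-Dawley rats of either age had spared nerve injury (SNI) or a sham operation that only exposed the sciatic nerve. In SNI the common peroneal and tibial branches of that nerve are tied and cut and its sural branch is spared. The groups were adult SNI, adult sham, neonate SNI and neonate sham, each with 6 arrays that the labels call biologically independent. Adults were 8 to 12 weeks old, and neonates are labelled postnatal day 10 without saying whether this was the day of surgery or of collection. The series title places the measurement 7 days after the injury. Pups stayed with their mothers after surgery, and tissue came from the operated side. The sources used here do not say whether animals were perfused to clear blood from the vessels, or whether animals were pooled.

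Circulating red cells of mammals have no nucleus, but the youngest of them, the reticulocytes, still hold messenger RNA, most of it for haemoglobin. Hbb and Hba-a3 encode the beta chain and an alpha chain of haemoglobin. Alas2 encodes the aminolevulinate synthase that starts haem synthesis in developing red cells, and Slc4a1 encodes band 3, the anion exchanger of the red cell membrane. Platelets also lack a nucleus and carry RNA from the megakaryocytes that shed them, and Pf4 encodes platelet factor 4, a chemokine stored in their granules. The red cell transcripts are taken here as a measure of blood left in the vessels of the cord, and their source was not tested. Neurons and glia of rodents have also been described to hold some haemoglobin RNA.

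The sequences just before the starts of the globin genes are shown to let a reader see what the beta and alpha genes hold in common there. These stretches lie outside the transcripts and do not show what the probe sets measure. They are from the RefSeq annotation of build GRCr8, on the minus strand, and end at the base before the annotated start. Capitals mark the motifs CACCC and ATAAA and either orientation of CCAAT, and adjoining motifs run together.
Hbb, chr1:167663722-167663841: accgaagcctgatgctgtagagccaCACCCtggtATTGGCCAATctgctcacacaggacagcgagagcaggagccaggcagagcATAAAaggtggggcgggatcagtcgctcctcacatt
Hba-a3, chr10:15816944-15817063: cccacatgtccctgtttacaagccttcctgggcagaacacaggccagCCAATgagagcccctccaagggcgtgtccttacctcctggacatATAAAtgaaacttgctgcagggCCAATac
The Hbb window held CACCC at 95 bases before the start, CCAAT at 81 bases and again on the opposite strand at 86 bases, and ATAAA at 36 bases. The Hba-a3 window held CCAAT at 73 and 7 bases before the start and ATAAA at 29 bases. AGATAA, a form of the site read by GATA factors, was in neither window on either strand. Of 33469 RefSeq promoter windows of 120 bases, 29.5% held CACCC, 19.9% CCAAT, 21.5% ATAAA and 4.57% AGATAA, and 4.49% held CCAAT and ATAAA together. These matches describe the letters and are not evidence of binding. The promoter table held 3 of the 5 genes, and Alas2 is not shown because its listed start lies inside the gene's annotated span.

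Haemoglobin and Alas2 RNA was higher in adult than in neonatal dorsal horn in sham and injured animals, Pf4 RNA was higher in adults among sham animals, and none of the 5 genes passed the test for injury at either age. All values are log2 expression from GCRMA, an array method that puts dim probe sets at a common low value, here 2.09 at the lowest. The filter level, 3.84 log2, is the 40th percentile of all values. Testing required a value over that level on 6 or more arrays, and 9638 probe sets met this, among them 5 of the 6 red cell and platelet ones. The dimmer of the Slc4a1 probe sets was not tested. Array medians lay between 5.57 and 5.67, and the share of values over the filter level was 59.7% to 60.4% per array. Levels of different probe sets are not set against each other, because probes differ in how well they bind.

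**Figure D1:**
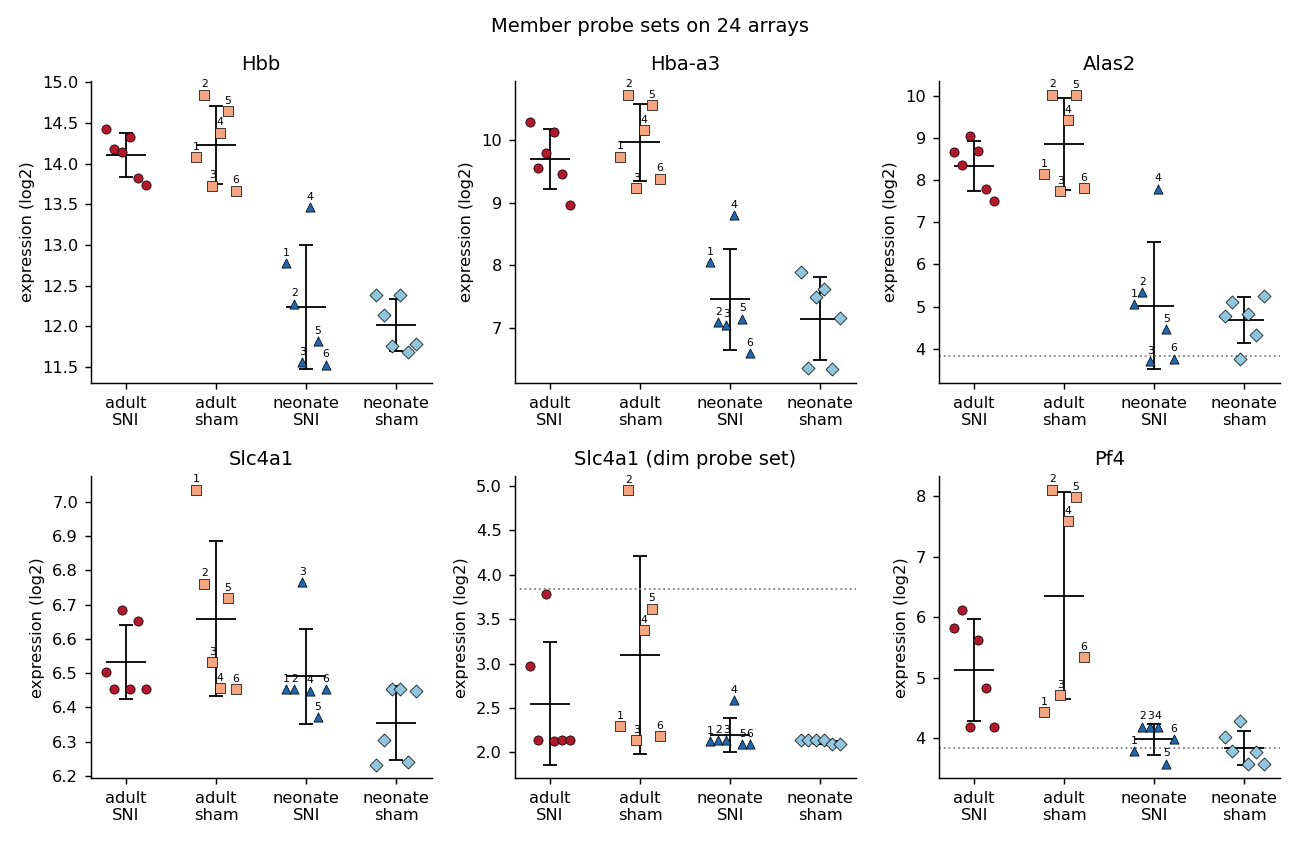
Log2 expression (vertical axis) of the 6 probe sets on each of 24 arrays, by group, with adult SNI, adult sham, neonate SNI and neonate sham from left to right; points are arrays, bars the mean ± SD (n = 6 each), and the dotted line the filter level of 3.84 log2. Adult arrays lie above neonate arrays for Hbb and Hba-a3, and adult sham arrays 2, 4 and 5 are the highest of their group for Pf4.

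Hbb (probe set 1367553_x_at) was highest in the adult groups. Its lowest, median and highest values were 13.74, 14.17 and 14.42 log2 on adult SNI arrays, 13.67, 14.23 and 14.85 on adult sham arrays, 11.53, 12.05 and 13.47 on neonate SNI arrays, and 11.69, 11.96 and 12.39 on neonate sham arrays. The adult SNI arrays lay within the adult sham range, neonate SNI arrays 1 and 4 lay above all neonate sham arrays while the other 4 lay among or below them, and every adult array lay above every neonate array. In sham animals Hbb was higher in adults by 2.20 log2 (SE 0.27), which is 4.61-fold (limma adjusted p = 2.72e-06, n = 6 each). After injury adults were higher by 1.87 log2, or 3.66-fold (limma adjusted p = 1.47e-05). The brightest probe set of each array read between 14.88 and 15.40 log2, so the adult Hbb values stood near the top of the scale.

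Hba-a3 (probe set 1375519_at) was likewise higher in the adult groups. Its lowest, median and highest values were 8.97, 9.67 and 10.30 log2 in adult SNI, 9.23, 9.94 and 10.72 in adult sham, 6.59, 7.12 and 8.80 in neonate SNI, and 6.34, 7.33 and 7.90 in neonate sham. No neonate array reached an adult one. The adult level was higher by 2.82 log2 (SE 0.35) in sham animals, which is 7.05-fold (limma adjusted p = 3.21e-06). After injury it was higher by 2.24 log2, or 4.73-fold (limma adjusted p = 4.12e-05).

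A further 5 probe sets carry the symbols of several haemoglobin genes and are no members, 3 of them for alpha chains and 2 for beta chains. In sham animals all 5 were higher in adults without overlap, by 1.72 to 2.94 log2 (limma adjusted p from 1.32e-06 to 1.14e-05). After injury they were higher in adults by 1.32 to 2.56 log2, and 1 alpha chain probe set overlapped between the ages. The smallest of these differences came from alpha chain probe sets that reached 14.94 log2, close to the array maxima. Probe sets of the haemoglobin chains Hbz, Hbe1 and Hbg1, used before birth in mammals, were at 2.09 log2 on all 24 arrays, neonates included.

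Alas2 (probe set 1367985_at) was also higher in the adult groups. Its values on adult SNI arrays ran from 7.50 to 9.04 log2 with a median of 8.51, and on adult sham arrays from 7.74 to 10.02 with a median of 8.78. Neonate SNI arrays ran from 3.71 to 7.80 with a median of 4.76, and neonate sham arrays from 3.77 to 5.26 with a median of 4.79. Most neonate arrays were not far above the filter level, and 4 of 6 neonate SNI arrays and 5 of 6 neonate sham arrays exceeded it. Sham groups did not overlap, and the adult level was higher by 4.18 log2 (SE 0.54), which is 18.2-fold (limma adjusted p = 5.24e-06).

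After injury Alas2 was higher in adults by 3.32 log2, or 9.97-fold (limma adjusted p = 7.08e-05), and the ages overlapped through 1 array. Neonate SNI array 4 read 7.80 log2, above the lowest adult SNI arrays, while the other 5 neonate SNI arrays ended at 5.34. Without that array the difference was 3.87 log2 (limma adjusted p = 6.55e-07). The same array was the highest neonate for Hbb, at 13.47 log2, and for Hba-a3, at 8.80 log2. Without it the adult minus neonate difference after injury was 2.12 log2 for Hbb and 2.51 log2 for Hba-a3. Pf4 on this array was 4.19 log2, a value it shared with other neonate SNI arrays.

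The brighter Slc4a1 probe set (1369634_at) moved little. Its lowest, median and highest values were 6.45, 6.48 and 6.69 log2 in adult SNI, 6.45, 6.63 and 7.03 in adult sham, 6.37, 6.45 and 6.77 in neonate SNI, and 6.23, 6.38 and 6.45 in neonate sham. The value 6.45 log2 occurred on 9 of the 24 arrays, and the sham groups met at it. Adult sham exceeded neonate sham by 0.30 log2 (SE 0.093, limma adjusted p = 0.0253). This call was lost when adult sham array 1 was left out (0.23 log2, limma adjusted p = 0.0725), when adult sham array 2 or 5 or neonate sham array 1 or 5 was left out (limma adjusted p from 0.0510 to 0.0618), and when the sham groups were fitted alone (limma adjusted p = 0.0628). After injury the difference between ages was 0.04 log2 (95% interval -0.15 to 0.23, limma adjusted p = 0.793).

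The dimmer Slc4a1 probe set (1387656_at) lay at or near the common low value on most arrays. Its lowest, median and highest values were 2.12, 2.14 and 3.78 log2 in adult SNI, 2.14, 2.83 and 4.95 in adult sham, 2.09, 2.14 and 2.59 in neonate SNI, and 2.09, 2.14 and 2.14 in neonate sham. Adult sham array 2, at 4.95 log2, was the only array above the filter level. The Slc4a1 probe sets therefore gave different pictures, and the dim one had its high values on adult arrays.

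Pf4 (probe set 1371250_at) was highest and most variable in adult sham animals. Adult SNI arrays read 5.83, 6.12, 4.19, 5.62, 4.83 and 4.19 log2 for replicates 1 to 6. Adult sham arrays read 4.43, 8.10, 4.71, 7.58, 7.98 and 5.34 log2. Neonate SNI arrays lay between 3.58 and 4.19 log2, and neonate sham arrays between 3.58 and 4.28. Arrays 2, 4 and 5 of adult sham stood well above the other adult arrays, and all neonate arrays were close to the filter level. The SD was 0.85 log2 in adult SNI, 1.71 in adult sham, 0.26 in neonate SNI and 0.27 in neonate sham.

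Among sham animals Pf4 was higher in adults by 2.52 log2 (SE 0.52), which is 5.74-fold, with no overlap (limma adjusted p = 0.00123). Leaving out each array in turn kept this difference between 2.17 and 2.91 log2. After injury the adult minus neonate difference was 1.14 log2 (95% interval 0.08 to 2.21). The groups met at 4.19 log2, a value shared by 2 adult SNI and 3 neonate SNI arrays. The other 4 adult SNI arrays lay above all neonate SNI arrays. The test across all probe sets was not passed (limma adjusted p = 0.124). It was passed when only the injured groups were fitted (limma adjusted p = 0.0235), and a two-sided exact permutation test gave p = 0.0216 without adjustment. That permutation test was added after the unequal spread of Pf4 had been seen.

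Against the whole array, 7.51% of tested probe sets were higher and 8.81% lower in adult sham than in neonate sham, and 4.31% had every adult array above every neonate array. All 5 tested red cell and platelet probe sets were called higher, and 4 of them, Hbb, Hba-a3, Alas2 and Pf4, did not overlap. After injury 9.32% of probe sets were higher and 11.5% lower in adults, and 4.73% did not overlap in the upward direction. There 3 of the 5 were called higher (Hbb, Hba-a3 and Alas2), and Hbb and Hba-a3 did not overlap. The median difference of all tested probe sets was -0.03 log2 in sham animals and -0.04 log2 after injury. The sham and injured comparisons share no array, but they are not independent. Deviations of same-numbered SNI and sham arrays of an age went together, with a mean r of 0.38 in adults and 0.45 in neonates. In bulk tissue, fewer blood cells, less RNA per blood cell and less RNA from other cells cannot be told apart.

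**Figure D2:**
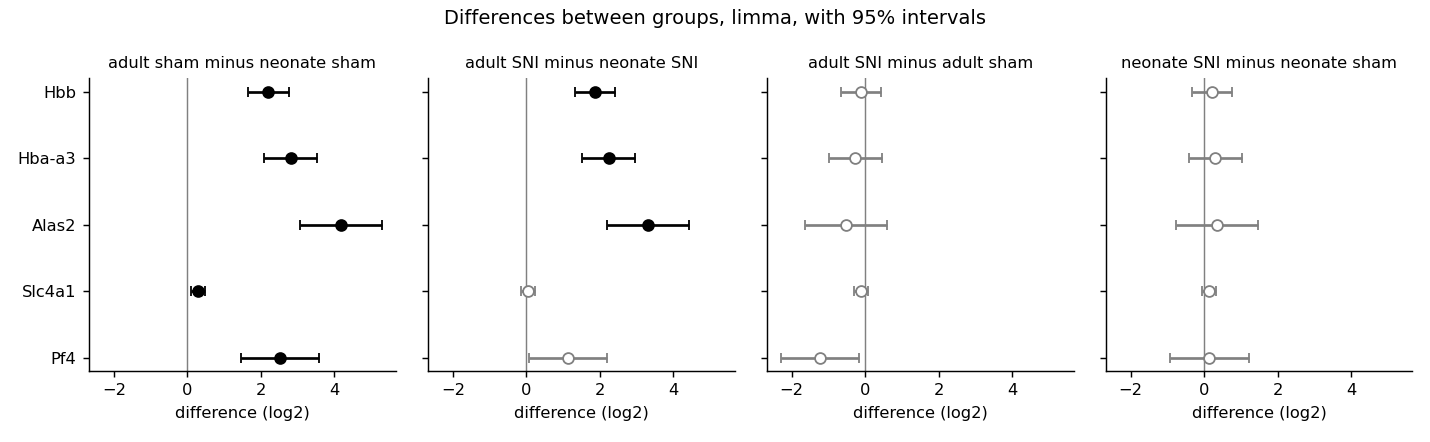
Differences in log2 expression (horizontal axis) from limma for the 5 tested probe sets, with 95% intervals, in 4 comparisons; filled points passed an adjusted p of 0.05 and open points did not. Hbb, Hba-a3 and Alas2 lie to the right of 0 in both age comparisons, and no point is filled in either injury comparison.

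No red cell transcript passed the test for injury. Adult SNI minus adult sham was -0.12 log2 for Hbb (95% interval -0.67 to 0.43, limma adjusted p = 0.981), -0.27 for Hba-a3 (-0.99 to 0.45, limma adjusted p = 0.952), and -0.52 for Alas2 (-1.63 to 0.59, limma adjusted p = 0.926). Slc4a1 differed by -0.13 log2 (-0.32 to 0.07, limma adjusted p = 0.867). In neonates, SNI minus sham was 0.22 log2 for Hbb (-0.34 to 0.77), 0.31 for Hba-a3 (-0.41 to 1.03), 0.34 for Alas2 (-0.77 to 1.46) and 0.14 for Slc4a1 (-0.06 to 0.33), each with a limma adjusted p of 1. For Alas2 these intervals still allow a fall of more than 1 log2 unit in adults and a rise of more than 1 log2 unit in neonates. Without neonate SNI array 4 the neonatal differences were -0.03 log2 for Hbb, 0.04 for Hba-a3 and -0.21 for Alas2.

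Pf4 was the gene with the largest injury difference of the 5, and it did not pass the test. It averaged 5.13 ± 0.85 log2 in adult SNI and 6.36 ± 1.71 log2 in adult sham (SD, n = 6 each), a difference of -1.23 log2 (95% interval -2.30 to -0.16). The unadjusted limma p was 0.0255, the limma adjusted p 0.472, and the two-sided exact permutation p 0.145. The groups overlapped, since adult sham arrays 1 and 3 read 4.43 and 4.71 log2. Without adult sham array 2 the difference was -0.88 log2, and without adult sham array 1 it was -1.62 log2, and the call was missed whichever array was left out (limma adjusted p from 0.119 to 0.832). In neonates the SNI minus sham difference was 0.15 log2 (95% interval -0.92 to 1.21, limma adjusted p = 1).

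The injury effect in adults minus that in neonates was -0.33 log2 for Hbb (95% interval -1.12 to 0.45), -0.58 for Hba-a3 (-1.59 to 0.44), -0.87 for Alas2 (-2.44 to 0.70), -0.26 for Slc4a1 and -1.38 for Pf4 (-2.89 to 0.13). None of the 5 was called in this or in either injury comparison. Over all tested probe sets limma called 2.0% for adult injury, 0.311% for neonatal injury and 0.228% for the difference between ages.

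Arrays of the same group differed in blood transcripts, and the haemoglobin and Alas2 values moved together over all arrays. Deviations from group means were correlated over the 24 arrays for the 15 pairs of the 6 probe sets, with 100000 permutations within groups and Benjamini-Hochberg adjustment over the pairs. Hbb and Hba-a3 gave r = 0.86 (rho = 0.85, permutation p = 2e-05, adjusted p = 1.5e-04), and r = 0.79 without the 2 arrays farthest from the median of Hbb. Hbb and Alas2 gave r = 0.89 (rho = 0.81, permutation p = 1e-05, the smallest possible, adjusted p = 1.5e-04), and r = 0.81 without the 2 farthest arrays. Hba-a3 and Alas2 gave r = 0.73 (rho = 0.64, permutation p = 6.8e-04, adjusted p = 0.00255), and r = 0.55 without the 2 farthest. In all 8 of the 15 pairs passed, and 2 of these, Hba-a3 with the dim Slc4a1 probe set and Hba-a3 with Pf4, no longer passed without the 2 farthest arrays (permutation adjusted p = 0.0534 for each). In a permutation that kept same-numbered SNI and sham arrays of an age together, chosen after seeing the data, the same 8 pairs and Alas2 with Pf4 passed (permutation adjusted p from 4.5e-04 to 0.0462). Within the 6 neonate sham arrays r was 0.50 for Hbb with Hba-a3, 0.40 for Hbb with Alas2 and -0.13 for Hba-a3 with Alas2.

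Of the 8 pairs 3 hold the dim Slc4a1 probe set, which exceeded the filter level on 1 of 24 arrays, so nothing is read from them. Its r with Hbb, Hba-a3 and Alas2 lay between 0.92 and 0.94 within adult sham and was -0.20 with Alas2 within neonate sham. The bright Slc4a1 probe set gave r between -0.15 and 0.19 with the other 5, and none of those pairs passed.

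Pf4 followed haemoglobin over the adult arrays, most closely within adult sham. Over all arrays r was 0.47 with Hbb (rho = 0.53, permutation adjusted p = 0.0257) and 0.49 with Hba-a3 (rho = 0.49, permutation adjusted p = 0.0201), and 0.58 and 0.47 without the 2 farthest arrays. Within the 12 adult arrays r with Hbb was 0.84, and within the 12 neonate arrays, where Pf4 was near the filter level, it was 0.08. Pf4 and Alas2 gave r = 0.49 over all arrays (rho = 0.46, permutation adjusted p = 0.0528), 0.65 without the 2 farthest, 0.82 in adults and 0.0021 in neonates. Within adult sham r of Pf4 was 0.88 with Hbb, 0.90 with Hba-a3 and 0.96 with Alas2. Within adult SNI it was 0.70, 0.56 and 0.29. The differences in these correlations between the ages and between the adult groups were not tested.

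**Figure D3:**
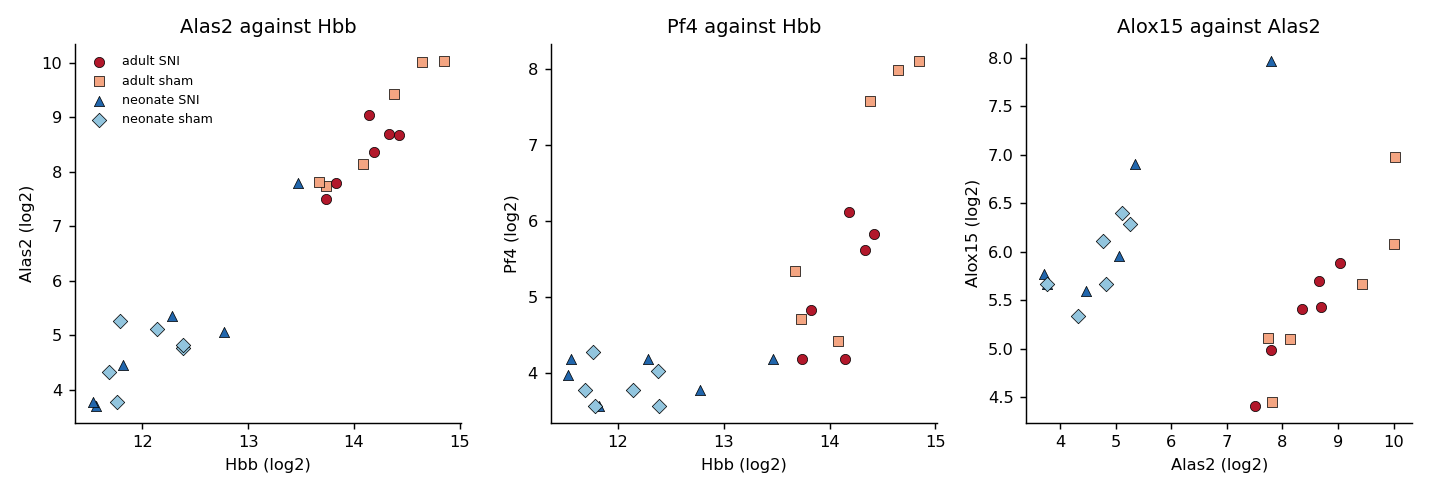
Log2 expression of pairs of probe sets on the same array, 1 point per array, with colours and shapes for the 4 groups. The pairs are Hbb with Alas2, Hbb with Pf4, and Alas2 with Alox15. Alox15 is not a member and is shown because its deviations from group means correlated most with those of Alas2. Hbb and Alas2 lie along 1 band from neonates to adults, with neonate SNI array 4 between the other neonates and the adults, while Pf4 spreads among adult sham arrays and stays low in neonates.

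The high adult sham arrays were the same for Hbb, Hba-a3, Alas2 and Pf4. Arrays 2, 4 and 5 were the 3 highest of adult sham for Hbb (14.85, 14.38 and 14.65 log2), for Hba-a3 (10.72, 10.15 and 10.55), for Alas2 (10.02, 9.43 and 10.02) and for Pf4 (8.10, 7.58 and 7.98). They were also the highest for the dim Slc4a1 probe set (4.95, 3.38 and 3.62), but there only array 2 exceeded the filter level. For the bright Slc4a1 probe set array 1 was highest, at 7.03 log2, and array 4, at 6.46, was among the lowest. Within these 6 arrays r was 0.97 between Hbb and Alas2, 0.99 between Hbb and Hba-a3 and 0.96 between Alas2 and Pf4. Adult sham was the only single group in which pairs passed an exact permutation test after adjustment over the 15 pairs. Within adult SNI, neonate SNI and neonate sham no pair passed, though r was also high in the injured groups. Hbb with Hba-a3 gave r = 0.93 in adult SNI and 0.95 in neonate SNI. In the same order Hbb with Alas2 gave 0.84 and 0.94, and Hba-a3 with Alas2 0.81 and 0.88. Differences in r between the groups were not tested.

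Some replicate numbers in the labels went with the level of some blood transcripts. Array 4 of each group lay above its group mean for Hbb, Hba-a3 and Alas2 in 4 of 4 groups, by 0.49, 0.61 and 0.96 log2 on average. Array 6 lay below its group mean for Hbb in 4 of 4 groups, by 0.47 log2 on average. Array 2 was above the mean for Hbb in 4 of 4 groups, and arrays 3 and 5 in 1 of 4. The genes did not all follow the number: array 2 was above the mean for Hba-a3 in 1 of 4 groups (-0.14 log2 on average), and array 4 for the bright Slc4a1 probe set in 1 of 4. These counts were picked from 6 numbers and 6 probe sets, and the share of all probe sets with such counts is not given. Over the array as a whole same-numbered arrays also deviated together. Their mean r was 0.38 in adults, 0.45 in neonates, 0.26 between the sham groups and 0.31 between the SNI groups. Following the number is therefore not shown to be particular to the blood transcripts. What the numbers mark is not stated in the labels.

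**Figure D4:**
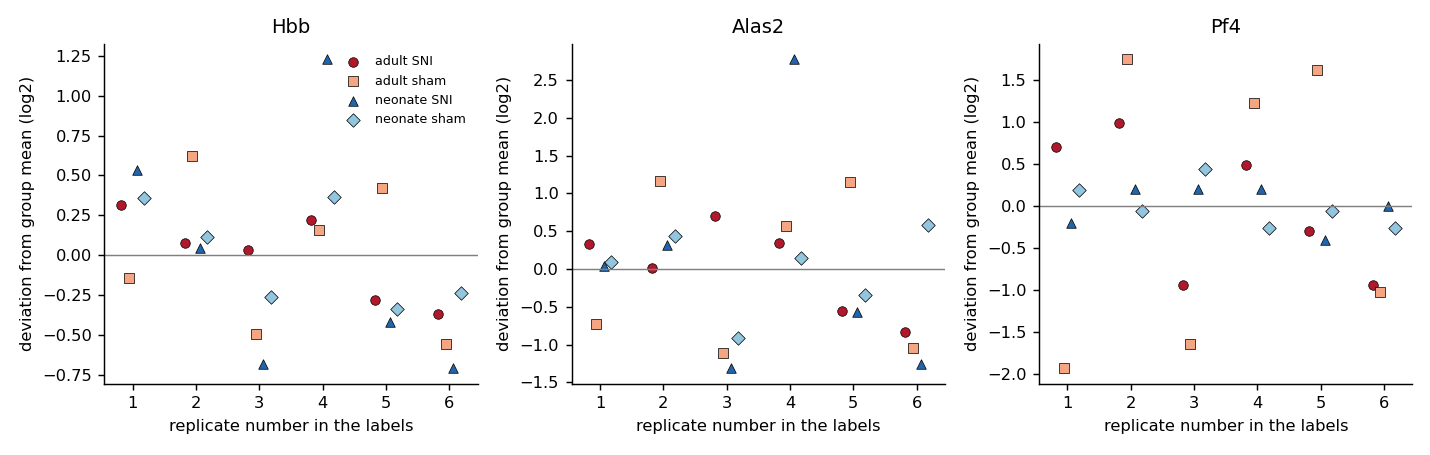
Deviation of each array from its group mean (log2, vertical axis) against the replicate number in the labels (horizontal axis) for Hbb, Alas2 and Pf4, with 1 symbol for each group. For Hbb all 4 arrays numbered 2 and all 4 numbered 4 lie above 0, and all 4 numbered 6 lie below it.

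The log2 ratio of Alas2 to Hbb lay lower on neonate arrays. Alas2 minus Hbb, a log2 ratio between fixed probe sets, ran from -6.24 to -5.11 in adult SNI, from -5.99 to -4.63 in adult sham, from -7.85 to -5.67 in neonate SNI, and from -8.00 to -6.53 in neonate sham. Sham groups did not overlap in it, and injured groups overlapped only through neonate SNI array 4, at -5.67. Neonatal Alas2 lay near the filter level and adult Hbb near the top of the scale. The ratio was given no test of its own.

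Genes most like each blood transcript were ranked by r of the deviations from group means over the 24 arrays, as a description that shares arrays and their RNA. For Hbb the highest were Ybx3 (0.82), Slc25a39 (0.81), Alox15 (0.80), Bmp1 (0.79), Adipor1 (0.79), Ptp4a2 (0.79), Hdac5 (0.78) and Pmm2 (0.78). Slc25a39 encodes a mitochondrial carrier linked to haem synthesis in vertebrates, and Ybx3 a protein that binds DNA and RNA. The median r with Hbb over 7001 genes was 0.13, and 95% of them lay between -0.50 and 0.64. For Hba-a3 the highest were Bmp1 (0.81) and Hdgfl2 (0.77), followed by Aurkaip1, Tnnc2 and Ltbr. For Pf4 they were Rsad2 (0.77), an interferon-induced gene, followed by Dusp14, Sec61g, Stmp1 and Cdc25b. For the bright Slc4a1 probe set they were Wsb1, Ifrd2, Fbxl14, Mbp and Dhrs11.

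Alas2 had 1 gene that stood apart from the next. Alox15, the lipoxygenase that helps to break down mitochondria in maturing reticulocytes, gave r = 0.90, ahead of Ptp4a2 (0.72), Cdc25b (0.69), Arsa and Rubcn. Within groups Alox15 and Alas2 gave r = 0.96 in adult SNI, 0.90 in adult sham, 0.94 in neonate SNI and 0.73 in neonate sham. Alox15 read 5.70, 5.42, 5.88, 5.43, 4.99 and 4.42 log2 in adult SNI, 5.11, 6.98, 5.11, 5.67, 6.08 and 4.45 in adult sham, 5.96, 6.91, 5.78, 7.97, 5.60 and 5.67 in neonate SNI, and 6.11, 6.40, 5.67, 5.67, 5.34 and 6.29 in neonate sham. Its highest value was on neonate SNI array 4, the neonate array with the most Alas2. Unlike Alas2 it was not higher in adults, with differences of -0.35 log2 in sham animals (limma adjusted p = 0.606) and -1.01 log2 after injury (limma adjusted p = 0.0687).

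Other red cell genes were mostly not measurable. Of 23 further red cell and erythroblast genes on the array, 16 were at or below the filter level on all arrays. These included the erythroid transcription factors Gata1 and Nfe2, the erythropoietin receptor Epor, the carbonic anhydrase Car1 and the membrane proteins Rhag and Kel. Of the 7 tested, 2 were higher and 0 lower in adult sham than in neonate sham, with a median difference of 0.26 log2. Over all tested probe sets 7.51% were higher and 8.81% lower, and the sham counts of this and the following lists stand beside those shares. Tmod1, which caps actin filaments in the red cell skeleton and in other cells, was higher by 1.57 log2 (limma adjusted p = 0.00174). Fech, the ferrochelatase that inserts iron into haem, was higher by 0.59 log2 (limma adjusted p = 0.0062). Ank1, the ankyrin that ties band 3 to the skeleton, differed by 0.44 log2 (limma adjusted p = 0.0887).

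After injury 3 of these 7 genes were higher and 1 lower in adults, with a median of 0.16 log2. Over all tested probe sets 9.32% were higher and 11.5% lower. The 4 genes were Tmod1 (1.40 log2, limma adjusted p = 0.00377), Fech (0.49 log2, limma adjusted p = 0.0188), Bpgm, which makes the 2,3-bisphosphoglycerate of red cells (0.29 log2, limma adjusted p = 0.0452), and, in the other direction, Mgst3, a glutathione transferase (-0.40 log2, limma adjusted p = 0.0226). In adult injury 0 of the 7 were called. Haem synthesis is shared by all cells, and of its 5 tested genes only Fech was called in either age comparison. Alas1, the synthase of other tissues, differed by 0.04 log2 in sham animals (limma adjusted p = 0.868).

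Of 6 tested genes with a part in red cell antioxidant defence or carbon dioxide handling, 2 were higher and 0 lower in adult sham. They were the glutathione peroxidase Gpx1 (0.53 log2, limma adjusted p = 0.00964) and the carbonic anhydrase Car2 (0.49 log2, limma adjusted p = 0.00886), and glia express these genes too. The median of the 6 was 0.04 log2, and after injury 1 of them was higher in adults.

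Pf4 had little company among platelet genes, and which cells its RNA came from was not tested. Of 14 further platelet genes on the array, 8 were at or below the filter level on all arrays. Ppbp, another granule chemokine, Itga2b and Gp5, parts of the platelet adhesion receptors, and Selp, P-selectin, were within 0.1 log2 of 2.09 on all arrays. Of the 6 tested, 2 were higher and 1 lower in adult sham, with a median of -0.16 log2. Gng11 was higher by 0.55 log2 (limma adjusted p = 1.25e-04), Plek by 0.62 log2 (limma adjusted p = 0.00601), and Nrgn, which is chiefly a neuronal gene, differed by -0.64 log2 (limma adjusted p = 0.0414). In adult injury Plek was higher by 1.57 log2 (limma adjusted p = 9.07e-08) and P2ry12 by 1.09 log2 (limma adjusted p = 0.00166), and microglia express Plek and P2ry12 as well as platelets do. In neonatal injury P2ry12 was higher by 0.93 log2 (limma adjusted p = 0.0481). The list mean per array ran from 3.92 to 4.07 log2 in adult SNI, 3.78 to 3.89 in adult sham, 3.91 to 4.00 in neonate SNI and 3.79 to 3.91 in neonate sham.

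Genes that take up free haemoglobin, haem and iron did not follow the blood transcripts as a group. Of 10 tested, 1 was higher and 4 were lower in adult sham, with a median of -0.29 log2. Cp, ceruloplasmin, was higher by 0.39 log2 (limma adjusted p = 0.0149). The iron exporter Slc40a1 differed by -0.84 log2 (limma adjusted p = 0.00458), the transferrin receptor Tfrc by -0.37 (limma adjusted p = 0.019) and the iron transporter Slc11a2 by -0.34 (limma adjusted p = 0.0206), all lower in adults. Hp, haptoglobin, differed by 0.04 log2 (limma adjusted p = 0.872). Hmox1, which degrades haem, was below the filter level on all arrays and averaged 2.72 log2 in adult SNI, 2.14 in adult sham, 2.17 in neonate SNI and 2.09 in neonate sham.

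Most white blood cell genes lay below the filter level. Of 12 granulocyte genes on the array 11 were at or below the filter level on all arrays, and S100a8 stayed within 0.1 log2 of 2.09. S100a9, its partner in neutrophils, was the exception, at 2.86 to 5.17 log2 in adult SNI, 3.49 to 6.43 in adult sham, 2.90 to 4.91 in neonate SNI and 2.58 to 4.85 in neonate sham. Its highest arrays in adult sham were 4, 5 and 1, and the difference of 1.00 log2 between the sham groups was not called (limma adjusted p = 0.160). The granulocyte list mean ran from 2.16 to 2.39 log2 in adult SNI, 2.21 to 2.68 in adult sham, 2.16 to 2.34 in neonate SNI and 2.13 to 2.32 in neonate sham. Of 16 lymphocyte genes 0 could be tested. Cd4, which rat macrophages and microglia also express, exceeded the filter level on 3 arrays and averaged 3.77 log2 in adult SNI, 2.21 in adult sham, 2.17 in neonate SNI and 2.11 in neonate sham.

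Vessel genes had few calls, in both directions, to be read against the 7.51% higher and 8.81% lower over all tested probe sets. Of 17 tested endothelial genes 2 were higher and 3 lower in adult sham, with a median of -0.11 log2, and the list mean ran from 5.98 to 6.22 log2 in adult SNI, 6.08 to 6.15 in adult sham, 6.06 to 6.12 in neonate SNI and 6.06 to 6.25 in neonate sham. Slco1a4, an organic anion transporter of brain vessels, was higher by 1.76 log2 (limma adjusted p = 1.21e-09), and Ets1 (-0.69 log2, limma adjusted p = 0.00739) and Kdr (-0.60 log2, limma adjusted p = 0.0174) were lower. Cldn5, a tight junction protein, differed by -0.30 log2 (limma adjusted p = 0.164), and Pecam1 was below the filter level on all arrays. Pericyte and smooth muscle genes gave 2 higher and 1 lower of 8 tested, with a median of 0.04 log2. The part of vessel density in the blood transcripts was not tested.

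Markers of other cells in the cord are given beside these values. The dorsal horn list averaged between 9.22 and 9.83 log2 on every array, with 17 of its 19 genes tested, and 1 was higher and 2 lower in adult sham. The microglia list averaged 7.49 to 8.00 log2 in adult SNI, 5.42 to 5.84 in adult sham, 5.89 to 6.33 in neonate SNI and 5.02 to 5.54 in neonate sham. Of its 21 tested genes 19 were higher after adult injury, 13 after neonatal injury, 8 in adult sham over neonate sham and 18 in adult over neonate injury. Over all tested probe sets the shares called higher were 1.95%, 0.311%, 7.51% and 9.32%. Genes of macrophages at vessels and meninges gave 1 higher (Lyz2, 1.51 log2, limma adjusted p = 1.61e-05) and 1 lower (Dab2, -0.53 log2, limma adjusted p = 0.037) of 4 tested in adult sham, and Lyve1 and Folr2 were below the filter level on all arrays. Choroid plexus and meningeal genes gave 2 higher and 2 lower of 11 tested. Of 16 cell cycle genes 1 was tested and it was not called.

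Most other transcripts called for injury were called with and without a term for the amount of blood RNA. The mean of Hbb and Hba-a3 per array served as the measure, and the 5 tested red cell and platelet probe sets were left out, which left 9633. With this measure as a covariate limma called 201 probe sets for adult injury, against 193 without it, and 187 were shared. It called 26 for neonatal injury, against 30, with 25 shared, and 21 for the difference of the injury effects between ages, against 22, with 20 shared.

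The age comparisons behaved otherwise, since the measure itself separates the ages. It ran from 11.35 to 12.36 log2 in adult SNI, 11.48 to 12.79 in adult sham, 9.06 to 11.13 in neonate SNI and 9.01 to 10.14 in neonate sham. With it as a covariate 236 probe sets were called between the sham groups, against 1566 without, and 171 were shared. After injury the counts were 677 and 2007, with 493 shared. When each array's deviation from its group mean was used instead, a choice made after seeing these counts, limma called 1691 between the sham groups and 2142 after injury. Age and amount of blood RNA therefore cannot be told apart by the plain covariate.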

How the data were processed

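Per the labels' protocols, biotinylated cRNA from total RNA was put on the Affymetrix rat 230A array. The deposited values are log2 expression per probe set made with GCRMA, per the submitters' processing notes, with no version given; they were used as deposited. Of 15923 rows, 57 control rows were removed. Of the rest 12783 had 1 gene symbol, 312 several and 2771 none, and 12748 were matched to the RefSeq gene list, which changed 0 symbols. No source used here names a genome build for the arrays. GCRMA assigns dim arrays of a probe set a common value, so fold changes from low levels may be understated, which was not tested. The number of arrays limits the precision.

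Linear models were fitted to all 4 groups together with limma 3.58.1 under R 4.3.3, with 20 residual and 3.81 prior degrees of freedom. Two-sided p-values were adjusted by Benjamini-Hochberg over 9638 probe sets of 7006 genes, with a threshold of 0.05. The probe set with the highest mean stood for its gene in the lists. The fit was tested on simulated data. Correlations used Python 3.11.15, and figures matplotlib 3.10.9.

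The members and gene lists were chosen with earlier results of these data known. Named genes were every member, up to 4 genes per list with the smallest p, genes that define a list, the 8 genes most like Hbb and the 5 most like each other member. S100a9 values, Gata1, Nfe2, Epor, Car1, Rhag, Kel, the haemoglobin chains of early life, Alas1, Gp5, Selp and Folr2 were named after their values were seen, to show what could not be measured.

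Deviations from group means of same-numbered SNI and sham arrays correlated at 0.10 to 0.56 for adult arrays and at 0.24 to 0.61 for neonate arrays, so the numbers were taken to pair arrays within an age. Between ages same-numbered arrays correlated at 0.014 to 0.43 for sham and at 0.035 to 0.64 for SNI. Their mean r was 0.26 for sham and 0.31 for SNI, against -0.05 and -0.06 for other numbers. Same-numbered arrays therefore also deviated together between ages, though less closely on average. Ages were not paired, and the main fit had no term for the number. Alternatives covered the filter, scaling, variance estimation, array weights, a replicate block, the groups fitted, and each array left out.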

Additional observations from a re-analysis of the deposited data

Results flagged for a closer look

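Of 24 sets of 6 arrays, 6 probe sets in 4 groups, 2 held an array far from the others. For normally spread values chance alone would mark about 1 in 20. Both flagged sets hold repeated values, 6.45 log2 on 3 arrays and 2.14 log2 on 2, so that share does not apply to them. For the bright Slc4a1 probe set, neonate SNI array 3 read 6.77 log2, against 6.45 for the next highest array, a gap of 0.793 of the group's range. For the dim Slc4a1 probe set, neonate SNI array 4 read 2.59 log2, against 2.14 for the next, a gap of 0.897 of the range, and both values lie below the filter level. Array 4 is also the neonate array with the highest Hbb, Hba-a3 and Alas2, but none of these passed the same criterion.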

How the results depend on the processing

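Of 845 alternative values for single red cell and platelet probe sets, 837 kept their direction or stayed uncalled, 6 lost a call and 2 gained one. The losses were all Slc4a1 in adult against neonate sham, and the gains were Pf4 in adult against neonate injury. A filter at the 60th percentile gave 106 calls for adult injury against 193, 6 for the difference of injury effects between ages against 22, and 3 called members in the sham age comparison against 5, since fewer probe sets passed it. With the replicate number as a block there were 297 calls for adult injury and 2468 between the sham ages against 1573, and with a block within each age 291 for adult injury; the block changed no call of a member. Fitting only the neonate groups gave 18 calls for neonatal injury against 30; the cause was not tested. The haemoglobin covariate gave 236 and 677 calls for age in sham and injured animals. Of the 15 member correlations 8 passed over all arrays and 9 when same-numbered arrays of an age were exchanged together. Within adult SNI, neonate SNI and neonate sham 0, 0 and 0 passed, and adult sham was the only group in which pairs passed. Leaving out each array in turn gave 169 to 200 calls for adult injury, 23 to 31 for neonatal injury, 19 to 29 for the difference, 1248 to 1658 for age in sham and 1722 to 2138 for age after injury. Members called ran from 4 to 5 for age in sham, from 3 to 3 for age after injury and were 0 for injury. Neonatal Alas2 and Pf4 lay near the filter level and adult haemoglobin near the top of the scale. Whether this altered the size of the age differences was not tested.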
